A study of Homo sapiens with 6 samples.

Results

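Long noncoding RNAs were examined after silencing of Mic60 in PC3 cells, an established human line of metastatic prostate cancer. The RNAs were those whose symbols start with LINC (long intergenic noncoding RNAs) or SNHG (hosts of small nucleolar RNAs), together with the snoRNA hosts GAS5 and EPB41L4A-AS1, the nuclear body RNAs MALAT1 and NEAT1, the microRNA hosts MIR22HG, MIR17HG and MIR31HG, and PVT1, NORAD and OIP5-AS1. Each had to reach 10 raw counts in at least 3 of the 6 libraries. Of 2163 rows of the count table with such a symbol, 220 met this minimum (186 LINC rows, 27 snoRNA hosts, 2 nuclear body RNAs, 2 microRNA hosts and 3 others), among 14653 genes that met it in the whole table. A further 1943 rows did not, and 1347 of them held no count in any library. The third-highest count was 10 in 10 of the RNAs kept and 9 in 18 of those left out. MIR31HG was left out, with 8, 2 and 8 counts in siMic60 libraries and 9, 6 and 5 in siCTRL libraries, as were SNHG22 and SNHG27, without a count. The RNAs were thus selected on their symbols and on their raw counts in the same libraries that are compared here, and their presence is a description. Of the 10 RNAs that met the minimum through 1 group alone, 7 were called changed below, and such RNAs had to differ between the groups to be kept.

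The libraries were labelled siMic60 (n = 3), for siRNA against Mic60, and siCTRL (n = 3), for its control. The labels also give the genotypes Mic60 KO and Mic60 WT to the same groups, so that silencing and knockout cannot be told apart from the labels, and the siRNA names are used here. All libraries came from the PC3 line, and no time after transfection or other treatment is given in the sources used here. PolyA RNA was read with QuantSeq 3′ mRNA libraries, which yield reads near the 3′ end of a polyadenylated transcript, so a count follows the number of transcripts and not their length. Nothing in the labels says whether the 3 samples of a group came from separate cultures, and the p-values then cover only how these 6 libraries vary, which may be technical. In bulk RNA, a change in a few cells and a change in every cell cannot be told apart.

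Small nucleolar RNAs guide the methylation and pseudouridylation of ribosomal RNA, and most are cut out of the introns of host genes. The spliced host RNA is often noncoding, starts with a run of pyrimidines like the mRNAs of ribosomal proteins, and is commonly degraded by nonsense-mediated decay on ribosomes, so that the host RNA and its snoRNAs can have different levels. NEAT1 is the scaffold of paraspeckles, MALAT1 resides in nuclear speckles, NORAD binds Pumilio proteins in the cytoplasm, and MIR17HG and MIR22HG are precursors of microRNAs. Most LINC genes have no known function.

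Total counts were 6644495, 8460209 and 8779877 in siMic60 libraries and 7714837 to 8396244 in siCTRL libraries, so that 3 counts were worth 0.342 to 0.452 CPM (counts scaled to a common library size). IMMT, which encodes Mic60, was at 5.83, 7.34 and 8.53 CPM in siMic60 libraries, against 88.9, 91.2 and 90.4 CPM in siCTRL libraries (log2 fold change −3.62, SE 0.15, edgeR adjusted p = 4.29e-10). All 5 epithelial markers were expressed. KRT19, EPCAM and KRT18 fell (log2 fold change −0.94, −0.75 and −0.53) and KRT8 rose (0.62). Of 5 prostate luminal markers, KLK3 was at 0 in every library and TMPRSS2 fell (−1.12). None of 11 leukocyte markers reached the minimum, and their summed level was 0.346 to 1.47 CPM in siMic60 and 1.68 to 2.22 CPM in siCTRL libraries, with CD3D, CD3E, CD2, MS4A1, FCGR3A and NKG7 among those at 0. Of 7 fibroblast markers, COL1A1 fell (−2.42) and DCN was at 0. The summed fibroblast list was at 47.5 to 68.8 CPM in siMic60 and 278 to 374 CPM in siCTRL libraries. The part of these shifts in the results below was not tested.

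The first bases of the snoRNA hosts are shown because a C followed by pyrimidines at the start marks RNAs whose translation follows growth signals. For the hosts called changed below that had an entry, the RefSeq window of 45 bases (GRCh38.p14, transcribed strand) has the annotated start at base 11. Capitals mark the first run of a C and at least 4 further pyrimidines that begins within 10 bases of the start. The first 5 hosts rose in siMic60 cells and the last 4 fell. SNHG15 and SNHG9 are named only.
SNHG17 (chr20:38435294-38435338, minus strand): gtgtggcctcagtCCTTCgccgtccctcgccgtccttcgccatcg
SNHG1 (chr11:62855851-62855895, minus strand): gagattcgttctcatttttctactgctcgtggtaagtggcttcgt
SNHG7 (chr9:136728150-136728194, minus strand): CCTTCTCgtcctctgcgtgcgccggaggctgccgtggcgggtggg
SNHG3 (chr1:28505933-28505977, plus strand): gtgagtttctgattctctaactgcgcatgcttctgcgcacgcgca
SNHG12 (chr1:28581839-28581883, minus strand): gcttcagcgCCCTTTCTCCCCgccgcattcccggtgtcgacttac
SNHG18 (chr5:9546190-9546234, plus strand): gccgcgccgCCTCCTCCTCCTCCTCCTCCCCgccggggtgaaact
SNHG14 (chr15:24823598-24823642, plus strand): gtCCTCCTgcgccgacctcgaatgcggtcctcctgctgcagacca
SNHG20 (chr17:77088633-77088677, plus strand): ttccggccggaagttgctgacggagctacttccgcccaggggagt
SNHG29 (chr17:16438977-16439021, plus strand): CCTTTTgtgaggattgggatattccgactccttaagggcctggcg
Such a run was present in 14 of the 23 snoRNA hosts with an entry (60.9%), against 9091 of 27305 promoters in the whole table (33.3%). It was in 3 of the 5 hosts that rose, in 3 of the 4 that fell and in 8 of the 14 that were not called. Hosts with and without the run were thus found on both sides, and a window without it says only that these letters were not near the start RefSeq annotates.

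Of the 220 RNAs, 29 rose (13.2%) and 31 fell (14.1%) in siMic60 cells at an edgeR quasi-likelihood test with Benjamini-Hochberg adjusted p under 0.05. Among all genes tested, 17.7% rose and 17.9% fell, or 35.5% in either direction. The 3 siMic60 libraries lay entirely above or below the 3 siCTRL libraries for 40.5% of the RNAs, against 47.9% of all genes. Their median log2 fold change was −0.04, against 0.00 over all genes. Many of the RNAs were low, and the share called followed the level: it was 16.1% of 118 RNAs with a mean of 1 to 5 CPM (19.6% of all genes at that level), and 10 of 42 RNAs above 25 CPM rose and 11 fell (44.3% of all genes at that level were called). Of the 92 RNAs with 50 counts in at least 3 libraries, 20 rose and 20 fell (21.7% each), beside 21.1% and 19.6% of all genes with that count in the same fit. The shares of RNAs called were thus near those of other genes at like levels. Leaving out siCTRL replicate 3 lowered the number that rose to 19, whereas 31 fell. The share of all genes called in that fit is not given here. Of the 60 calls, 35 (17 higher and 18 lower) held in every one of the 13 alternative fits that measured the RNA.

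**Figure D1:**
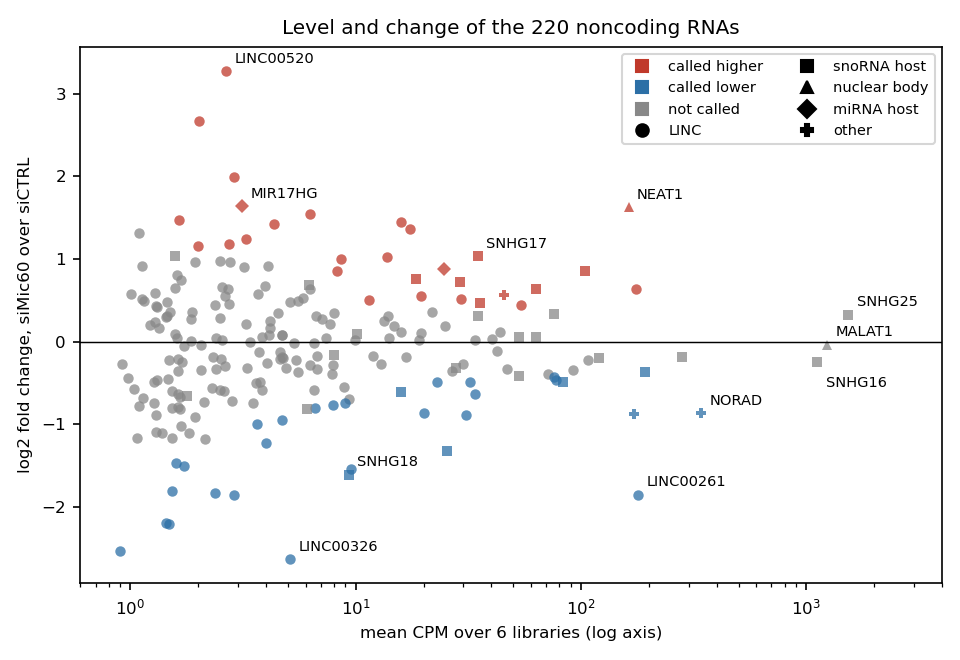
Mean level over the 6 libraries (CPM, log axis) against the log2 fold change of siMic60 over siCTRL for each of the 220 noncoding RNAs, with the call as colour and the class of RNA as symbol. Calls lie on both sides of 0, the 3 most abundant RNAs (SNHG25, MALAT1 and SNHG16) were not called, LINC00520 is highest at 3.27 and LINC00326 lowest at −2.63, and NEAT1 and LINC00261 stand out among the abundant RNAs.

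Summed over the 220 RNAs, the level was 7585, 7759 and 8379.6 CPM in siMic60 libraries, against 8346, 8258 and 7836 CPM in siCTRL libraries. These ranges overlap, so no change in the total was seen. SNHG25, MALAT1 and SNHG16 carried 48.5% of this sum. The 3 RNAs PVT1, NORAD and OIP5-AS1 summed to 417 ± 24.0 CPM in siMic60 and 700.1 ± 26.2 CPM in siCTRL cells, and the 2 microRNA hosts to 36.7 ± 3.84 CPM in siMic60 and 18.96 ± 1.81 CPM in siCTRL cells (SD, n = 3 each). The 27 snoRNA hosts together were at 4080.1 ± 204 CPM in siMic60 and 3936 ± 185 CPM in siCTRL cells.

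Among the snoRNA hosts, 6 of 27 rose, 5 fell and 16 were not called, with a median log2 fold change of 0.06. These are 22.2% and 18.5% of the hosts, near the 17.7% and 17.9% of all genes. When the libraries were scaled by their totals alone, 5 hosts rose and 7 fell, and the median log2 fold change of all genes was −0.05. The host with the smallest p among those that rose was SNHG17, which carries the SNORA71 box H/ACA snoRNAs in its introns. It was at 45.2, 46.1 and 48.5 CPM in siMic60 libraries, against 22.8, 22.9 and 22.7 CPM in siCTRL libraries. The replicates of each group lay close together and the groups were far apart, at 2.05-fold (log2 fold change 1.03, SE 0.13, edgeR adjusted p = 1.96e-05). SNHG1, which hosts several box C/D snoRNAs, was at 147, 147 and 107 CPM in siMic60 libraries, against 67.6, 73.7 and 80.9 CPM in siCTRL libraries. All siMic60 libraries were above all siCTRL libraries, with siMic60 replicate 3 the lowest of its group (log2 fold change 0.85, SE 0.14, edgeR adjusted p = 2.97e-04). SNHG15, a short-lived host RNA, had 19.8, 21.2 and 28.6 CPM in siMic60 libraries and 11.6, 15.5 and 14.1 CPM in siCTRL libraries (log2 fold change 0.76, SE 0.19, edgeR adjusted p = 0.00496). SNHG7, which hosts box H/ACA snoRNAs, had 34.0, 40.6 and 33.8 CPM in siMic60 and 21.7, 26.0 and 18.2 CPM in siCTRL libraries, without overlap (log2 fold change 0.72, SE 0.16, edgeR adjusted p = 0.00244). Its exons overlap DIPK1B on the opposite strand, which fell (−0.66), so the counting is uncertain.

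SNHG3, the host of SNORA73A and SNORA73B, was at 64.2, 95.2 and 70.2 CPM in siMic60 libraries, against 39.1, 52.4 and 56.1 CPM in siCTRL libraries. The groups did not overlap, and siMic60 replicate 2 was highest (log2 fold change 0.64, SE 0.17, edgeR adjusted p = 0.00758). Its exons overlap those of RCC1 on the same strand in GENCODE 29. RCC1 also rose (log2 fold change 0.83, SE 0.21), and reads could be split between them, so that the counting of these genes is uncertain. SNHG12, which holds SNORD99 and other snoRNAs and overlaps exons of TRNAU1AP on the opposite strand, was at 39.6, 49.3 and 35.3 CPM in siMic60 and 36.9, 29.3 and 23.3 CPM in siCTRL libraries. These overlapped, and the call (log2 fold change 0.47, SE 0.17, edgeR adjusted p = 0.0478) ended when siMic60 replicate 1 or 2 or siCTRL replicate 2 or 3 was left out, with edgeR adjusted p up to 0.199. With library totals the SNHG12 log2 fold change was 0.42 (edgeR adjusted p = 0.073).

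The hosts that fell included SNHG18 and SNHG14 with the largest decreases. SNHG18, which holds SNORD123 and shares a divergent promoter region with SEMA5A, was at 3.68, 4.28 and 5.76 CPM in siMic60 libraries, against 16.9, 12.1 and 13.3 CPM in siCTRL libraries. It thus fell to 32.8% of the siCTRL level (log2 fold change −1.61, SE 0.24, edgeR adjusted p = 1.00e-04). SNHG14 is the long paternally expressed RNA of the Prader-Willi region that carries the SNORD115 and SNORD116 clusters. Its level was 11.2, 16.5 and 15.8 CPM in siMic60 libraries, against 38.4, 37.9 and 33.3 CPM in siCTRL libraries, or 40.01% of the siCTRL level (log2 fold change −1.32, SE 0.16, edgeR adjusted p = 2.27e-05). Its exons overlap those of SNRPN on the same strand, which also fell (log2 fold change −0.85, SE 0.13), and reads could be split between them. Exons of SNHG14 also overlap UBE3A on the opposite strand, so its counting is uncertain.

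SNHG20, whose exons overlap SEC14L1 on the same strand, was at 10.9, 12.8 and 13.7 CPM in siMic60 and 18.7, 17.5 and 21.3 CPM in siCTRL libraries (log2 fold change −0.61, SE 0.17, edgeR adjusted p = 0.0118). Without siCTRL replicate 3 its edgeR adjusted p was 0.0580. SEC14L1 also fell (log2 fold change −0.48, SE 0.13), so the counting of SNHG20 is uncertain. SNHG9, the host of SNORA78, was at 74.8, 72.2 and 61.7 CPM in siMic60 libraries, against 109, 88.9 and 93.9 CPM in siCTRL libraries, and the groups did not overlap (log2 fold change −0.49, SE 0.13, edgeR adjusted p = 0.00813). SNHG29, the host of SNORD49A and SNORD49B, had 170, 189 and 143 CPM in siMic60 and 206, 221 and 223 CPM in siCTRL libraries (log2 fold change −0.37, SE 0.12, edgeR adjusted p = 0.0290). Although its groups did not overlap, this small decrease lost its call when siMic60 replicate 1 or 3 or siCTRL replicate 2 or 3 was left out, with edgeR adjusted p up to 0.127. Its exons overlap LRRC75A on the opposite strand, which fell (log2 fold change −1.48).

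**Figure D2:**
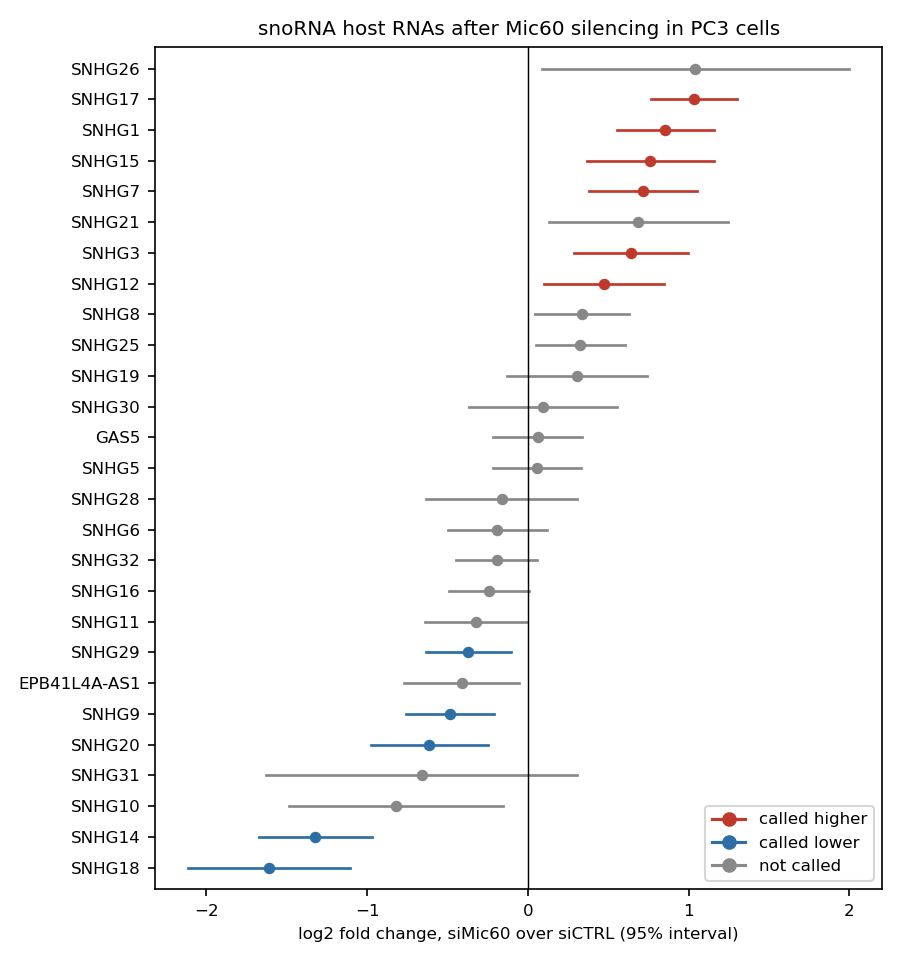
Log2 fold change of siMic60 over siCTRL for the 27 snoRNA host RNAs, ordered from highest to lowest, with 95% intervals from the fit and the call as colour. SNHG17, SNHG1, SNHG15, SNHG7, SNHG3 and SNHG12 were called higher and SNHG29, SNHG9, SNHG20, SNHG14 and SNHG18 lower. GAS5 and SNHG5 sit at 0.06.

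The most abundant hosts were not called. SNHG25, the host of SNORD104, was at 1522.5, 1561 and 2040.1 CPM in siMic60 and 1543, 1203.5 and 1341 CPM in siCTRL libraries, and the groups overlapped (log2 fold change 0.33, interval 0.05 to 0.60, edgeR adjusted p = 0.0647). SNHG16, which holds SNORD1B, was at 1164, 901.6 and 1014 CPM in siMic60 and 1142, 1179 and 1319.6 CPM in siCTRL libraries, also with overlap (log2 fold change −0.24, interval −0.49 to 0.01). For SNHG6, the host of SNORD87, the log2 fold change was −0.19 (interval −0.50 to 0.12). GAS5, a growth arrest RNA that carries box C/D snoRNAs in nearly every intron, was at 47.8, 57.0 and 57.0 CPM in siMic60 libraries and 56.9, 51.2 and 47.3 CPM in siCTRL libraries. The groups overlapped, and the 95% interval of its log2 fold change was −0.22 to 0.34 around 0.06 (edgeR adjusted p = 0.752). SNHG5, the host of SNORD50A and SNORD50B, had a log2 fold change of 0.06 too (interval −0.22 to 0.33).

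Several hosts lay just outside the threshold. SNHG21 had 8.89, 8.20 and 5.995 CPM in siMic60 and 3.84, 5.25 and 5.18 CPM in siCTRL libraries, without overlap (log2 fold change 0.69, edgeR adjusted p = 0.0526). SNHG10, the host of SCARNA13, had 2.91, 5.14 and 5.07 CPM in siMic60 and 11.1, 6.75 and 5.55 CPM in siCTRL libraries (log2 fold change −0.82, edgeR adjusted p = 0.0538). Its exons overlap GLRX5 on the opposite strand, a gene that rose (log2 fold change 0.86, SE 0.12). EPB41L4A-AS1, the host of SNORA13, was at −0.41 (edgeR adjusted p = 0.0699), SNHG8 at 0.34 (0.0708) and SNHG26, which holds SNORD93, at 1.04 from 1 to 3 CPM (0.0837). With other settings, SNHG21, SNHG10, EPB41L4A-AS1, SNHG8 and SNHG25 passed the threshold in 3 or 4 fits each. SNHG11, SNHG32, SNHG28, SNHG30, SNHG19 and SNHG31 ran between −0.66 and 0.31 without a call.

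Where rows for the small RNAs could be set beside the hosts, nearly all were at or near 0 in these polyA libraries. The table has 94 rows for snoRNAs, scaRNAs and miRNAs inside 18 of the named host genes on the same strand, with 381 counts over the 6 libraries in all. Of these counts, 337 were in SCARNA13, the guide RNA inside SNHG10, and 15 in SNORA73B inside SNHG3. SNHG10 itself had 105 counts in siMic60 and 192 in siCTRL libraries, so its value and that of SCARNA13 are hard to separate. No such row was found inside SNHG1, SNHG5, SNHG7, SNHG8, SNHG9, SNHG15, SNHG20, SNHG21, SNHG29 or GAS5, whose small RNAs were not analysed here.

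Of all genes, 17.7% rose and 17.9% fell, and lists of genes linked to the hosts were read against these shares. Among the proteins that build snoRNPs, 5 of 16 measured genes rose and none fell, with a median log2 fold change of 0.20. DKC1, the pseudouridine synthase of H/ACA particles, was at 425, 343 and 277 CPM in siMic60 libraries, against 137, 162 and 194 CPM in siCTRL libraries (log2 fold change 1.08, SE 0.16, edgeR adjusted p = 1.07e-04). The C/D core proteins NOP58 (log2 fold change 0.58) and NOP56 (0.56) rose as well, and NOP56 is also a snoRNA host gene. Of 14 measured factors of nonsense-mediated decay, 8 rose and none fell, with a median of 0.41. XRN1, the exonuclease that degrades decapped RNA, was at 44.9, 37.2 and 53.0 CPM in siMic60 and 19.1, 20.9 and 17.6 CPM in siCTRL libraries (log2 fold change 1.23, SE 0.16, edgeR adjusted p = 2.61e-05), and MAGOH (0.77), of the exon junction complex, rose too. Of 19 translation genes whose mRNAs start with a pyrimidine tract, 1 (NAP1L1) rose and 3 fell, with a median of 0.00. Those that fell were EEF2 (−0.57), EIF4B (−0.53) and EEF1G (−0.48). Of 10 further snoRNA host genes, 3 rose, among them TAF1D (0.63), and 1 fell, DANCR (−0.82, SE 0.14, edgeR adjusted p = 4.76e-04).

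NEAT1 was at 210, 261 and 266 CPM in siMic60 libraries, against 85.3, 86.3 and 67.3 CPM in siCTRL libraries. All siMic60 libraries lay far above all siCTRL libraries, and the rise was 3.09-fold (95% interval 2.52 to 3.78, log2 fold change 1.63, SE 0.14, edgeR adjusted p = 5.05e-07). With any 1 library left out the log2 fold change stayed between 1.52 and 1.73. MALAT1, transcribed from the neighbouring gene, was at 1220.9, 1125.5 and 1317.5 CPM in siMic60 libraries and 1164.9, 1551.9 and 1036.3 CPM in siCTRL libraries. The siMic60 values lay within the siCTRL range, and the log2 fold change was −0.03 (interval −0.33 to 0.26, edgeR adjusted p = 0.872). None of 13 measured paraspeckle proteins was called by edgeR, DESeq2 or limma, and 1 (HNRNPH3, log2 fold change 0.48) had an unadjusted p under 0.05. Their median was 0.02, with NONO at 0.06 and SFPQ at −0.01. Of 10 nuclear speckle proteins, ACIN1 (0.64) and SRSF2 (0.32) rose and none fell (20% against 17.7% of all genes higher).

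NEAT1 makes a short polyadenylated and a long form without a polyA tail, and MALAT1 also ends without a tail, in an encoded A-rich stretch. The last 40 bases of the longest NEAT1 transcript in GENCODE 29 (GRCh38) are shown because libraries primed on A stretches can still read such ends. Capitals mark runs of at least 4 A.
NEAT1 (chr11:65445501-65445540, plus strand): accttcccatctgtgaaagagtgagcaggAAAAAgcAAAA
The longest run of A was 22 bases in the NEAT1 transcript of 22743 bases and 13 bases in the MALAT1 transcript of 8708 bases. Which form of NEAT1 gave the counts was not tested.

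Both measured microRNA hosts rose. MIR22HG was at 30.2, 29.98 and 35.9 CPM in siMic60 libraries, against 15.9, 19.8 and 16.6 CPM in siCTRL libraries, without overlap (log2 fold change 0.88, SE 0.15, edgeR adjusted p = 4.30e-04). MIR17HG, the precursor of the miR-17-92 cluster and a known target of MYC, was at 3.99, 4.90 and 5.30 CPM in siMic60 and 1.199, 1.001 and 2.34 CPM in siCTRL libraries. Its rise rests on 112 counts in siMic60 and 37 in siCTRL libraries (log2 fold change 1.64, SE 0.38, edgeR adjusted p = 0.00338). Of 9 other measured microRNA hosts, 4 rose and none fell, with MIR503HG at 1.298, MIR23AHG at 1.17 and MIR100HG at 0.84, while 17.7% of all genes rose and 17.9% fell.
The mature microRNAs encoded in both hosts are printed from RefSeq (GRCh38.p14), with the seed (bases 2 to 8) in capitals, because the seed decides which mRNAs they bind. The cluster holds 4 seeds, of which one is shared by miR-17-5p and miR-20a-5p and another by miR-19a-3p and miR-19b-3p.
hsa-miR-22-3p (MIR22HG, chr17:1713914-1713935, minus strand): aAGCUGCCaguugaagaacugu
hsa-miR-17-5p (MIR17HG, chr13:91350618-91350640, plus strand): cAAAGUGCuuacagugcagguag
hsa-miR-20a-5p (MIR17HG, chr13:91351072-91351094, plus strand): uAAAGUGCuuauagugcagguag
hsa-miR-18a-5p (MIR17HG, chr13:91350756-91350778, plus strand): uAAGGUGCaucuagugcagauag
hsa-miR-19a-3p (MIR17HG, chr13:91350939-91350961, plus strand): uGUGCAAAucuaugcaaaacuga
hsa-miR-19b-3p (MIR17HG, chr13:91351245-91351267, plus strand): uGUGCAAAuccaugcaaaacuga
hsa-miR-92a-3p (MIR17HG, chr13:91351361-91351382, plus strand): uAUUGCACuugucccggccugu
These libraries read polyA RNA and say nothing of the level of the mature forms. Of 12 genes of the microRNA machinery, 2 rose and 4 fell (16.7% and 33.3%, against 17.7% and 17.9% of all genes). Those that rose were TNRC6A (log2 fold change 0.56), a relative of TNRC6B, and XPO5 (0.45), which exports the hairpins from the nucleus. TNRC6B, which links Argonaute to deadenylation, was at 54.0, 52.4 and 63.1 CPM in siMic60 libraries, against 155, 151 and 151 CPM in siCTRL libraries (log2 fold change −1.43, SE 0.12, edgeR adjusted p = 4.83e-07). DICER1, which cuts the hairpins, fell by 1.06 and AGO2, which carries the microRNA, by 0.80 on the log2 scale.

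NORAD was at 208, 247 and 269.6 CPM in siMic60 libraries, against 462, 416 and 446 CPM in siCTRL libraries. The groups were far apart, and NORAD fell to 54.8% of the siCTRL level (log2 fold change −0.87, SE 0.12, edgeR adjusted p = 5.86e-05). NORAD binds Pumilio proteins through many copies of the word TGTANATA, and the transcript of 5339 bases held 15 of them. Of 14159 tested genes with a transcript in GENCODE 29, 3 (NORAD included) held as many, and among the 220 RNAs the next highest number was 10. At least 1 word was found in 37 of the 220 RNAs (16.8%) and in 32.0% of the tested genes. The 3 places in NORAD where a pair of words starts 9 bases apart are shown as examples of its repeats, with the words in capitals (GENCODE 29, GRCh38).
NORAD bases 1436 to 1464 (chr20:36049497-36049525, minus strand): tatctgTGTATATAgTGTACATAaaggac
NORAD bases 2633 to 2661 (chr20:36048300-36048328, minus strand): ctatacTGTATATAtTGTATATAtaacgg
NORAD bases 3269 to 3297 (chr20:36047664-36047692, minus strand): gtgctgTGTATATAgTGTATATAagcgga
Of the proteins that bind NORAD, PUM2 was at −0.30 (edgeR adjusted p = 0.0798), and RBMX and KHDRBS1 were not called.

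OIP5-AS1, also known as cyrano, is a conserved RNA with a site for miR-7 that directs the decay of this microRNA. It was at 145, 112 and 107 CPM in siMic60 libraries, against 202, 224 and 241 CPM in siCTRL libraries. No siMic60 library reached the lowest siCTRL library, and the level fell to 54.6% of siCTRL (log2 fold change −0.87, SE 0.13, edgeR adjusted p = 1.59e-04). OIP5, whose exons overlap OIP5-AS1 on the opposite strand, was at 58.7, 68.5 and 63.0 CPM in siMic60 and 30.7, 44.2 and 44.5 CPM in siCTRL libraries (log2 fold change 0.67, SE 0.15). The pair thus moved in opposite directions, although without a stated strand setting their reads cannot be told apart with certainty. The site is shown with the miRNA, the seed and its match in capitals.
OIP5-AS1 bases 2869 to 2894 (chr15:41300574-41300599, plus strand): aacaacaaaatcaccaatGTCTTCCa
hsa-miR-7-5p (RefSeq, MIR7-3, chr19:4770700-4770723, plus strand): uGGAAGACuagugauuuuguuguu
Beyond the seed, 14 bases in a row were complementary at this site, against at most 5 at the other seed matches of the transcript, which had 3 matches in 8829 bases.

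PVT1, the RNA gene next to MYC, was at 48.6, 45.8 and 67.8 CPM in siMic60 and 27.4, 39.9 and 42.8 CPM in siCTRL libraries. The groups did not overlap, but siMic60 replicate 3 stood above its group (log2 fold change 0.56, SE 0.18, edgeR adjusted p = 0.0252). The call ended when the PVT1 log2 fold change was computed without siMic60 replicate 3 (0.36, edgeR adjusted p = 0.159), without siCTRL replicate 1 (0.40, edgeR adjusted p = 0.0836) or with library totals (0.50, edgeR adjusted p = 0.0524). MYC itself rose, with 29.6, 30.5 and 36.3 CPM in siMic60 and 3.24, 11.0 and 12.8 CPM in siCTRL libraries (log2 fold change 1.84, SE 0.31, edgeR adjusted p = 3.01e-04), and siCTRL replicate 1 was the lowest library for both genes.

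**Figure D3:**
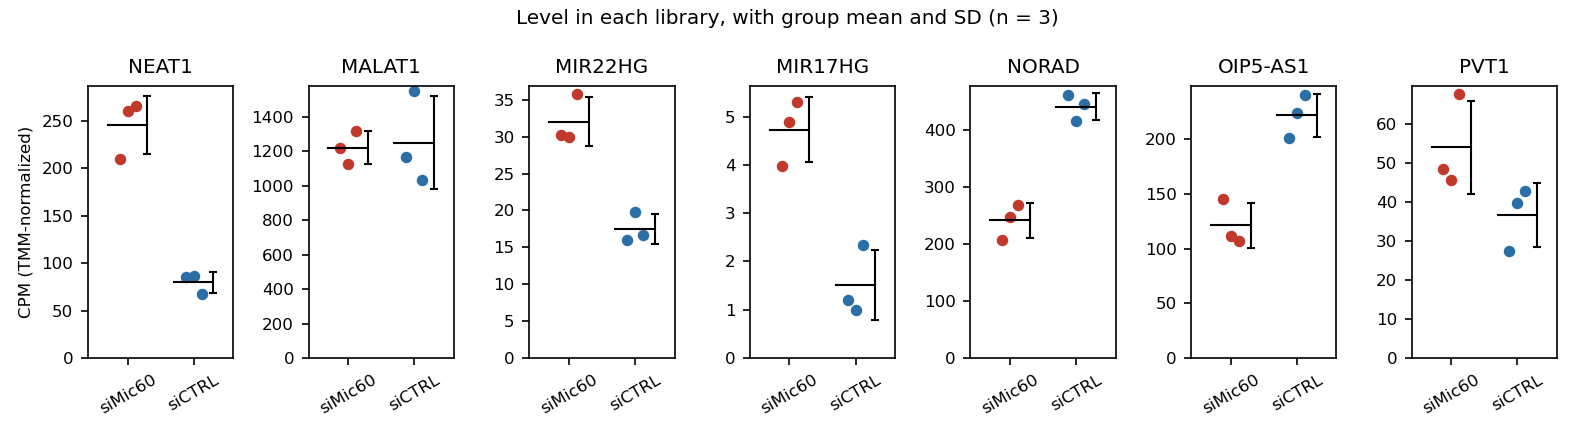
CPM in each library for NEAT1, MALAT1, MIR22HG, MIR17HG, NORAD, OIP5-AS1 and PVT1, with a linear axis from 0 in each panel, the 3 siMic60 libraries left and the 3 siCTRL libraries right, the group mean as a line and the SD as a bar. The groups are apart for NEAT1 (210 to 266 against 67.3 to 86.3 CPM), MIR22HG, MIR17HG, NORAD, OIP5-AS1 and, narrowly, PVT1, and overlap for MALAT1.

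Of the 186 LINC rows, 19 rose and 24 fell (10.2% and 12.9%), with a median log2 fold change of −0.11. Among all genes tested, 17.7% rose and 17.9% fell, so LINC rows were called less often than genes at large. This comparison is not matched on level, and of all genes with a mean of 1 to 5 CPM 19.6% were called. Without siCTRL replicate 3, 10 LINC rows rose, and without siCTRL replicate 1, 15 fell. The shares of all genes called in these fits are not given here. Over all 526 genes of the lincRNA type in GENCODE 29 that were tested, 8.75% rose and 13.5% fell, with a median of −0.10, and LINC rows make up part of these genes. The 143 that were not called had log2 fold changes of −1.17 to 1.32, and 99 of them were under 5 CPM. LINC00261, the most abundant LINC RNA here, had the decrease with the most counts behind it. This RNA, transcribed beside FOXA2, a transcription factor of endoderm, was at 50.3, 99.98 and 82.7 CPM in siMic60 libraries, against 284, 281 and 278 CPM in siCTRL libraries. The siCTRL libraries lay close together, and the siMic60 libraries were spread out, all far below them (log2 fold change −1.85, SE 0.18, edgeR adjusted p = 2.62e-06). FOXA2, its nearest coding gene, was at 58.7, 74.9 and 80.0 CPM in siMic60 and 167, 164 and 177 CPM in siCTRL libraries (log2 fold change −1.25, SE 0.13, edgeR adjusted p = 4.42e-06). In both genes siMic60 replicate 1 was lowest.

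Among the LINC RNAs that rose, LINC00520 had the largest change. It was at 3.99, 4.77 and 5.76 CPM in siMic60 and 0.839, 0.375 and 0.247 CPM in siCTRL libraries, or 115 against 12 counts (log2 fold change 3.27, SE 0.46, edgeR adjusted p = 6.20e-05). It met the minimum through the siMic60 libraries alone, like LINC01111 (82 against 13 counts, log2 fold change 2.67) and LINC02057 (56 against 21 counts, 1.48). LINC01356 was at 4.91, 4.28 and 4.61 CPM in siMic60 and 1.68, 1.00 and 0.740 CPM in siCTRL libraries (log2 fold change 1.99, SE 0.38, edgeR adjusted p = 9.39e-04). LINC01133 had more counts behind its rise, with 20.4, 23.4 and 25.9 CPM in siMic60 and 7.79, 9.26 and 8.63 CPM in siCTRL libraries (log2 fold change 1.44, SE 0.18, edgeR adjusted p = 1.83e-05). LINC-PINT, whose name stands for a long intergenic p53-induced transcript, has a pair of rows in the table. PC3 is a p53-null line, and the cause of the LINC-PINT level here was not tested. The row ENSG00000226380 was at 29.6, 26.4 and 19.1 CPM in siMic60 and 9.23, 12.01 and 7.77 CPM in siCTRL libraries (log2 fold change 1.37, SE 0.21, edgeR adjusted p = 1.40e-04). The row ENSG00000231721 was at 1.07, 3.43 and 4.84 CPM in siMic60 and 2.40, 1.88 and 1.73 CPM in siCTRL libraries (log2 fold change 0.67, edgeR adjusted p = 0.277).

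The other LINC RNAs among the 12 largest increases without overlap were LINC01239 (log2 fold change 1.55), LINC02742 (1.43), LINC02249 (1.24), LINC00339 (1.18), LINC02604 (1.16) and LINC00973 (1.02). Of these 12, 8 were called in all alternative fits that measured them. LINC02249 lost its call without siCTRL replicate 3 (edgeR adjusted p = 0.0559), LINC02057 in 3 of the 6 fits without 1 library (up to 0.0856), and LINC00339 and LINC02604 in 5 of 6 (up to 0.153 and 0.121). LINC00339 also lost it with limma-trend, and LINC02604 with DESeq2, without a minimum count and with the replicate block. A further 7 LINC RNAs rose by 0.45 to 1.00, among them LINC02582, the next most abundant. It was at 166, 191 and 282 CPM in siMic60 and 171, 120.1 and 119.9 CPM in siCTRL libraries, which overlap (log2 fold change 0.64, SE 0.19, edgeR adjusted p = 0.0144), and its call ended without siMic60 replicate 3 (log2 fold change 0.38, edgeR adjusted p = 0.105) or siCTRL replicate 2 or 3. LINC02878 (log2 fold change −0.23, interval −0.53 to 0.07) and LINC02895 (−0.35, interval −0.69 to −0.01, edgeR adjusted p = 0.102), both also abundant, were not called.

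Of the decreases, that of LINC00326 was the largest. It was at 1.38, 1.35 and 1.499 CPM in siMic60 libraries, against 10.7, 7.004 and 8.75 CPM in siCTRL libraries, or 33 against 216 counts (log2 fold change −2.63, SE 0.31, edgeR adjusted p = 1.23e-05). LINC01605 (6 against 38 counts, log2 fold change −2.53), LINC01503 (12 against 60, −2.21), LINC01315 (12 against 58, −2.19) and LINC00865 (21 against 63, −1.50) met the minimum through the siCTRL libraries alone. LINC01444 was at 3.68, 5.38 and 5.42 CPM in siMic60 and 15.9, 14.01 and 12.8 CPM in siCTRL libraries, far apart (log2 fold change −1.55, SE 0.22, edgeR adjusted p = 8.21e-05). LINC00920 (−1.83), LINC01637 (−1.80), LINC02035 (−1.22) and LINC03011 (−0.9995) completed the 12 with LINC00261 and LINC01963. LINC01963 was at 1.07, 1.84 and 0.807 CPM in siMic60 and 7.43, 3.00 and 3.08 CPM in siCTRL libraries, and without siCTRL replicate 1, the highest, its log2 fold change was −1.28 (edgeR adjusted p = 0.0516). LINC01637, LINC00865 and LINC03011 also lost the call without siCTRL replicate 1 and without 1 or 2 other libraries (edgeR adjusted p up to 0.0656). The other 12 that fell ran from −1.46 to −0.42.

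**Figure D4:**
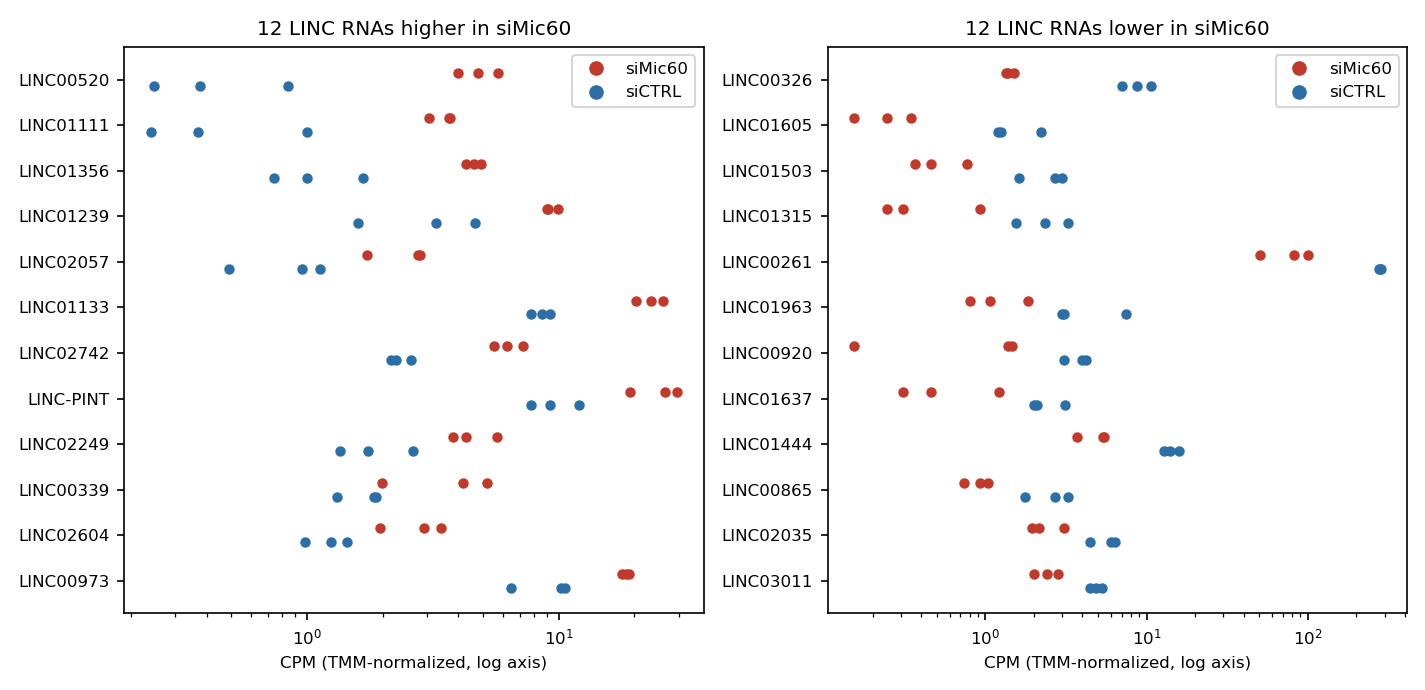
CPM in each library on a log axis for the 12 LINC RNAs with the largest increases (left) and the 12 with the largest decreases (right) among those called without overlap, with siMic60 libraries above siCTRL libraries in each row. The mean level is under 5 CPM for 8 of the 12 on the left and 9 of the 12 on the right, and LINC00261 is the most abundant at 50.3 to 99.98 CPM in siMic60 and 278 to 284 CPM in siCTRL libraries.

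Noncoding RNAs can share a promoter region or exons with a coding gene, so the nearest tested coding gene of each RNA in GENCODE 29 was compared with it. Over the 202 pairs without shared exons, the log2 fold changes had a Pearson r of 0.07 and a Spearman rho of 0.06, as a description across genes, which are not independent replicates and share the 6 libraries. Of the 28 such pairs in which both genes were called, 17 moved the same way and 11 in opposite ways. Of 12 pairs that face away from each other within 1 kb, 2 had both genes called. In the first, SNHG1 (0.85) and SLC3A2 (0.86), a subunit of amino acid transporters, rose by like amounts, and SLC3A2 was at 189, 180.1 and 205 CPM in siMic60 and 110, 111 and 94.8 CPM in siCTRL libraries. In the other, SNHG18 (−1.61) and SEMA5A (−2.94), a guidance factor of axons, fell, and SEMA5A was at 3.22, 1.71 and 5.30 CPM in siMic60 and 26.0, 27.6 and 25.9 CPM in siCTRL libraries. LINC01356 (1.99) lies beside SLC16A1, the lactate transporter MCT1, which was at 392.5, 391.7 and 348 CPM in siMic60 and 81.9, 85.2 and 74.7 CPM in siCTRL libraries (log2 fold change 2.23, SE 0.12). LINC01357, which has the same nearest coding gene, was not called (log2 fold change 0.22, edgeR adjusted p = 0.463). Its exons overlap LINC01356 on the opposite strand, so the counting of both RNAs is uncertain. FRMD8, beside NEAT1, rose by 1.03. Other coding neighbours of the named RNAs fell, among them EPB41L1 beside NORAD (log2 fold change −1.62) and GPC6 beside MIR17HG (−1.41). The pairs above were chosen for mention after their values were seen. Exons of 29 of the 220 RNAs, 9 of them called, overlap another tested gene in GENCODE 29, on the opposite strand for 25 and on the same strand for 6, and the values of these RNAs are uncertain.

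**Figure D5:**
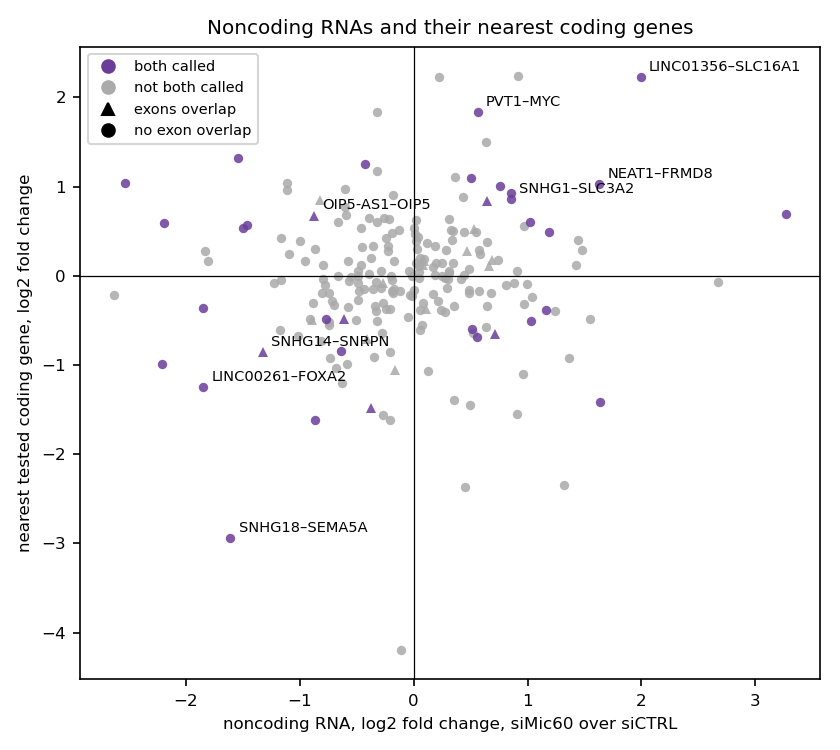
Log2 fold change (siMic60 over siCTRL) of each of the 220 noncoding RNAs (horizontal axis) and of its nearest tested coding gene (vertical axis), with pairs in which both were called in purple and pairs with overlapping exons as triangles. Points lie in all quadrants (r = 0.07 over the 202 pairs without shared exons), and SNHG18 with SEMA5A and LINC01356 with SLC16A1 are examples of pairs in which both genes moved the same way.

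Promoters of the RNAs (250 bases before to 50 after the start, RefSeq, GRCh38.p14) were found for 150 of the 220 rows and 149 symbols, and were searched on both strands. GAAANNGAA, the core of the word bound by interferon regulatory factors, was in 9 of 149 promoters (6.04%), against 8.29% of all promoters, and in none of the 22 promoters of RNAs that rose or the 22 of RNAs that fell. CACGTG, the E-box of MYC and related factors, was in 15 of 149 (10.1%), against 7.43%. It was in 3 of 22 that rose (LINC-PINT, LINC01278 and SNHG7) and 3 of 22 that fell (LINC01315, NORAD and OIP5-AS1). TGACTCA, the AP-1 word, was in 6.04% against 4.92%, TGACGTCA, the word of CREB and ATF factors, in 1.34% against 1.98%, and TGATGCAAT, the composite CEBP and ATF word, in none against 0.264%. The shares among the RNAs were near those of all promoters, and a match is a description of these letters only.

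Other long noncoding RNAs outside the selection were set beside them. Of 18 measured, 4 rose and 1 fell (22.2% and 5.56%, against 17.7% and 17.9% of all genes), with a median of 0.15. PSMB8-AS1, antisense to an immunoproteasome gene, was at 11.3, 11.3 and 10.8 CPM in siMic60 libraries, against 0.839, 0.375 and 1.11 CPM in siCTRL libraries (log2 fold change 3.82, SE 0.33, edgeR adjusted p = 7.19e-07). HCP5, in the HLA class I region, rose by 1.58 (SE 0.29), and UCA1, first described in urothelial cancer, by 1.47 (SE 0.37). In the absence of a stated strand setting, reads of PSMB8-AS1 and its coding partner cannot be told apart.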

How the data were processed

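3 siMic60 and 3 siCTRL QuantSeq libraries were analysed from 1 table of whole-number counts per Ensembl gene, deposited by the authors. In the submitters' processing notes, RSEM 1.2.3, DESeq2 and the build hg19 (GRCh37) are listed, in roles that are not stated. Which aligner and annotation were used, and whether counting was stranded, is not given in the sources used here. The deposited counts may be rounded estimates. Symbols were matched for 39991 of 57736 rows, 39501 from a table of gene names and 490 from GENCODE 29. GENCODE 29 and RefSeq (GRCh38) served for names, neighbours and sequences only.

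The 14653 genes that reached 10 counts in 3 or more libraries were fitted with edgeR 4.0.16 (quasi-likelihood, TMM) in R 4.3.3, siMic60 over siCTRL, with Benjamini-Hochberg adjustment over all genes and a threshold of 0.05. CPM values use the TMM library sizes, and intervals cover 95%. Depth was 6644495 to 8779877 counts per library, so that a gene at 1 CPM rests on few counts, and floors cover counting error only. The alternatives were DESeq2 1.42.0, limma-trend 3.58.1 with a prior count of 2, DESeq2 size factors, library totals, no minimum, a minimum of 50 counts, omission of each library and a block for the replicate number. On simulated siMic60 and siCTRL libraries (14417 genes), the edgeR fit called 29 of 80 genes changed 1.5-fold, 42 of 57 changed 2-fold, 56 of 56 changed 5-fold and 14 of 14224 unchanged genes. Few genes were changed in this simulation, whereas 35.5% of all genes were called in the data. The adjustment was therefore stricter in the simulation, and these shares need not hold for the data. No pair of libraries was alike within sampling noise (chi-square per degree of freedom 3.54 to 13.5 within groups).

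Named in full were the snoRNA hosts, the other RNAs named in the selection rule and, of the LINC RNAs called without overlap between the groups, the 12 with the largest change in each direction, together with the 4 LINC RNAs with the highest mean CPM and, of each other list, the called genes with the 3 smallest adjusted p. Other genes were named after their values were seen, and a few genes that the rule names are not reported here. The members and the gene lists were chosen with earlier results of these data known, so that no count over them is independent evidence. The tables, sequences and plots were made with Python 3.11.15, pandas 2.3.3, numpy 2.4.6, scipy 1.17.1 and matplotlib 3.10.9.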

Additional observations from a re-analysis of the deposited data

How the results depend on the processing

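No call among the 60 changed sign under any of the 13 alternative fits, and 1220 of 1303 comparisons of a result with an alternative kept both the direction and the side of the threshold. Among the comparisons of genes, a call was lost in 52, a call was gained in 20 and the sign changed in 5. With a minimum of 50 counts, which left 92 RNAs, 20 rose and 20 fell, of which 11 and 13 were LINC RNAs. In that fit, 20.8% of all genes rose and 21.2% fell. With 1 library left out, 19 to 28 RNAs rose and 22 to 32 fell, with 10 to 17 LINC RNAs higher and 15 to 24 lower, and 5 to 8 snoRNA hosts higher and 4 to 7 lower. The lowest numbers came without siCTRL replicate 3 (19 higher, 10 of them LINC) and without siCTRL replicate 1 (22 lower, 15 of them LINC). The shares of all genes called with a library left out are not given here. Whether the lower numbers are particular to these RNAs was not tested. Small differences crossed 0 with 1 library left out: the MALAT1 log2 fold change ran from −0.15 to 0.15 (0.03 without siMic60 replicate 2 and 0.15 without siCTRL replicate 2), the SNHG30 log2 fold change from −0.036 (without siCTRL replicate 1) to 0.28, the GAS5 log2 fold change from −0.0010 (without siCTRL replicate 3) to 0.14 and the SNHG5 log2 fold change from −0.011 (without siMic60 replicate 3) to 0.17. The cause was not tested. Library totals gave 26 higher and 39 lower and shifted the median of all genes to −0.05. Same-numbered libraries did not deviate together (correlations −0.10, −0.03 and 0.03), and with a replicate block 27 rose and 31 fell, with 57 of the 60 calls kept. Of the LINC RNAs under 5 CPM, 19 were called and 99 were not, and whether depth or a lack of change sets these numbers was not tested.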
